A study of Mus musculus with 11 samples.

Results

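The immediate early genes examined here are the 10 rows Fos, Fosb, Junb, Egr1, Arc, Npas4, Nr4a1, Ier2, Dusp1 and Btg2 of the count and normalized tables, out of 22609 genes listed. They were taken by name and not by a cut on measured values, although earlier results of these data were known. All 10 were among the 17557 genes tested. Immediate early genes are transcribed within minutes of a stimulus without new protein synthesis, from pre-formed activators such as CREB and serum response factor, and their mRNAs are short-lived. In neurons, synaptic activity and calcium entry switch them on, so they are widely used as markers of recently active cells, although glia and vessel cells also transcribe several of them. Most encode transcription factors that in turn drive slower genes, while others act at the synapse or end the response.

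Polyadenylated RNA had been sequenced in bulk from 11 mouse libraries labelled cerebellar hemisphere, from untreated littermates of mixed sex aged P30 in some labels and P32 in others. The background is given as C57BL/6J and also as mixed C57BL/6J;129. The 3 control libraries are labelled only as control. By the study's methods they came from NfascFx/Fx;AnkGFx/Fx mice or from mice with single or double floxed alleles, lacking Cre, although its results write one control genotype with Cre, and which library had which genotype is not given in the sources used here. The other groups carried Pcp2-Cre, which is driven by a Purkinje cell promoter: NFKO with Pcp2-Cre;NfascFx/Fx (n = 3), AnkGKO with Pcp2-Cre;AnkGFx/Fx (n = 2), and DKO (n = 3) with Pcp2-Cre;NfascFx/Fx;AnkGFx/Fx. Nfasc encodes NF186 and Ank3 encodes AnkG, both of the axon initial segment. A deletion confined to Purkinje cells would leave these genes intact in other cells, but which cells carried the deletion was not tested here. No immediate early gene was itself a target.

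Reads on genes numbered 38890851 to 55822361 per library, so that 3 counts equalled 0.0537 to 0.0771 CPM (counts scaled to library size, here with TMM factors). Ank3 fell in AnkGKO (log2 fold change -1.03, adjusted p = 0.00108 in the quasi-likelihood test of edgeR) and in DKO (-1.07, adjusted p = 0.000461 in the same test). Whole-gene counts of Nfasc did not separate NFKO from control, with log2 fold change -0.08 and adjusted p = 0.969 in the edgeR test. Markers went against the tissue label in most libraries. The Purkinje cell gene Pcp2 ranged from 0.0929 to 28.3 CPM and the granule cell gene Gabra6 from 0.0186 to 84.2 CPM, both highest in replicate 1 of control and NFKO. Summed over 6 granule cell markers, those libraries were at 574 and 479 CPM and the other 9 at 32.2 to 77.8 CPM. In the groups where Ank3 fell, Pcp2 was at 0.103 and 0.174 CPM (AnkGKO) and at 0.210 to 0.374 CPM (DKO). Which cells lost Ank3 RNA was not tested. Hox genes of paralog groups 6 to 9, which mark the caudal nervous system, gave sums of 395 to 615 CPM in every library. Levels of immediate early genes are therefore given below for the RNA of these libraries and not for a named brain region. In such bulk samples, fewer cells of a type and less RNA per cell cannot be told apart.

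The genes lie on 8 chromosomes, and positions are on GRCm39. The AP-1 subunit genes Fos (chr12:85520658-85524047), Fosb (chr7:19036621-19043976) and Junb (chr8:85701113-85705359) encode bZIP proteins that bind DNA as dimers. Egr1 encodes a zinc-finger transcription factor. Npas4 (chr19:5034382-5040344) encodes a bHLH-PAS factor that is induced in neurons by calcium entry, and Nr4a1 (chr15:101151980-101172681) an orphan nuclear receptor. Arc (chr15:74540932-74544419) encodes a synaptic protein that promotes the internalization of AMPA receptors. Dusp1 (chr17:26724564-26781102) encodes a phosphatase that inactivates MAP kinases, Btg2 (chr1:134002908-134015033) an antiproliferative partner of the CCR4-NOT deadenylase, and Ier2 (chr8:85387960-85389483) a nuclear protein of the early response. Btg2 lies 1.33 Mb from Nfasc, the floxed gene on the same chromosome.

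CREB, which is phosphorylated after calcium entry, binds the cAMP response element TGACGTCA and its shorter form TGACG, so these letters were looked for in the promoters of the members. The RefSeq table on GRCm38.p6 held 300 bases (250 before and 50 after the start site) for 7 of the 10 members, Fos, Fosb, Junb, Npas4, Nr4a1, Dusp1 and Btg2. Printed are the 250 bases before the start site, 5′ to 3′ on the gene's strand, for Fos, Nr4a1, Dusp1 and Btg2, whose levels gave 5 of the 6 highest correlations among the members, and for Npas4, whose highest correlation was with Arc. Capitals mark TGACG read on either strand.
Fos promoter, chr12:85473640-85473889 of GRCm38.p6, forward strand: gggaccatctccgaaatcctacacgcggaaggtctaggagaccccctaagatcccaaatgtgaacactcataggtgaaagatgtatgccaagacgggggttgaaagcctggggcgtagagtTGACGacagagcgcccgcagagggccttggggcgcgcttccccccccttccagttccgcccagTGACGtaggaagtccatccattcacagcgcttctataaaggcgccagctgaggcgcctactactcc
Nr4a1 promoter, chr15:101266596-101266845 of GRCm38.p6, forward strand: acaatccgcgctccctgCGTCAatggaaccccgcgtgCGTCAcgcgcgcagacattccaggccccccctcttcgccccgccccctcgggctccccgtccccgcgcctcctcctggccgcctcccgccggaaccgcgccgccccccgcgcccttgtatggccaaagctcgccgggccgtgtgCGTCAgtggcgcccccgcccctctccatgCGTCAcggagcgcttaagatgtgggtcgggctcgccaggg
Dusp1 promoter, chr17:26508473-26508722 of GRCm38.p6, reverse strand: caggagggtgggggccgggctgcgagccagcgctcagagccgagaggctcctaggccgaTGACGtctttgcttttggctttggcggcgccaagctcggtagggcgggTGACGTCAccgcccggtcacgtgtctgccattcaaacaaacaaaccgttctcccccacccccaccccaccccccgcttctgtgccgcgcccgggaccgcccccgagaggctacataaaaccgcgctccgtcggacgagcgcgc
Btg2 promoter, chr1:134079156-134079405 of GRCm38.p6, reverse strand: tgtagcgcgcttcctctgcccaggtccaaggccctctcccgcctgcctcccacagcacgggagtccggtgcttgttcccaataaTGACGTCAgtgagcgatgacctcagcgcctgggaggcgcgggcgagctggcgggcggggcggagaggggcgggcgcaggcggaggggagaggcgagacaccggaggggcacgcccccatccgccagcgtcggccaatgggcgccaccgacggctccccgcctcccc
Npas4 promoter, chr19:4989972-4990221 of GRCm38.p6, reverse strand: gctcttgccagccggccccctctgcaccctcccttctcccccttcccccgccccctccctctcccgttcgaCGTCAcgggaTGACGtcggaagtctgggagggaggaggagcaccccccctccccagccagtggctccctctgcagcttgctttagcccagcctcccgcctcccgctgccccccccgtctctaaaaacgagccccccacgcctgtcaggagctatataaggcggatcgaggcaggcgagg
TGACG on either strand was present in all 7 member promoters, against 20.8% of the 32851 promoters of the same length. The palindrome TGACGTCA, which holds TGACG on both strands, was present in those of Dusp1 and Btg2 and in 1.79% of all promoters. In Dusp1 it spans bases -143 to -136 and in Btg2 bases -166 to -159 from the start site. In Fos, the 2 short forms begin at -129 and -66. GCGNGGGCG, the letters that EGR proteins bind, was found on either strand in Fosb, Nr4a1 and Btg2 and in 5.55% of all promoters. Neither the AP-1 letters TGANTCA (7.81% of all promoters) nor the CArG box of serum response factor (1.63%) was found in the 7 windows on either strand. Bases outside these windows, and the promoters of Egr1, Arc and Ier2, were not searched. These matches describe letters and not bound sites.

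All 10 members were expressed in every library, but at different levels. Per kilobase of the canonical transcript, the mean over the 11 libraries was highest for Arc and Dusp1, both at 11.4 CPM per kb. Fos followed at 7.55, Junb at 7.29 and Egr1 at 6.86 CPM per kb. Ier2 was at 4.33, Nr4a1 at 4.25 and Btg2 at 4.04 CPM per kb, and the lowest means were those of Fosb at 0.656 and Npas4 at 0.615 CPM per kb. Of the 9 steps in this order, the gene above exceeded the next in 11 of 11 libraries at 3, from Dusp1 to Fos, from Egr1 to Ier2 and from Btg2 to Fosb. At the step from Btg2 to Fosb the ranges themselves did not overlap, with 3.00 to 4.82 CPM per kb for Btg2 and 0.463 to 0.770 for Fosb. At the other 6 steps the order depended on the library, as between Arc and Dusp1, where Arc was the higher of the pair in 6 of 11. Npas4, the most neuron-restricted of the transcription factors, rested on 61 to 161 reads per library and Fosb on 86 to 146, whereas Arc was covered by 737 to 2401.

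Levels of these genes varied more between mice of one genotype than those of most genes. The SD of log2(CPM + 0.5) within genotypes had a median of 0.238 over the members, from 0.162 for Ier2 to 0.333 for Fos, against 0.121 over the 13910 genes with a mean of at least 1 CPM and 0.128 over all genes tested. The SD of Fos exceeded that of 92.7% of all genes tested, that of Nr4a1 89.4%, that of Dusp1 88.7% and that of Arc 87.3%. Ier2, the steadiest of the 10, still exceeded 65.2%. Counting error alone corresponds to an SD of 0.0525 for Fos and 0.0352 for Arc on the log2 scale. For the sparsely covered Npas4 it corresponds to 0.14, against a measured SD of 0.204. This spread between mice is what each difference between genotypes is compared with below.

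**Figure D1:**
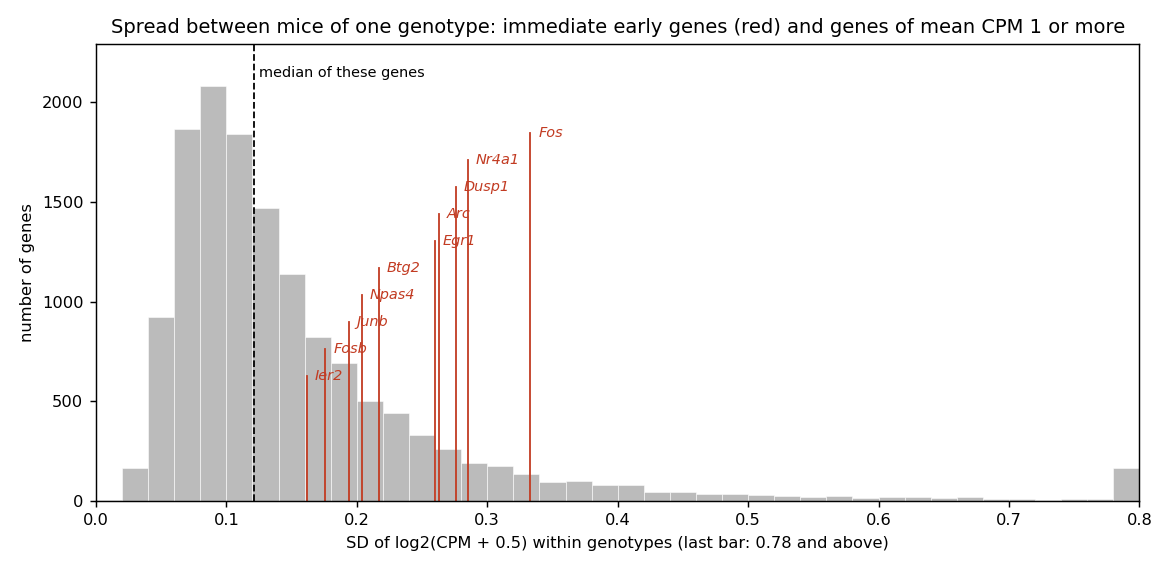
Histogram of the SD of log2(CPM + 0.5) within genotypes (x axis) for the 13910 genes with a mean of at least 1 CPM (y axis, number of genes), with red lines at the 10 immediate early genes and a dashed line at the median of 0.121. All 10 lines lie to the right of the dashed line, from 0.162 for Ier2 to 0.333 for Fos.

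NFKO was compared to control to ask what deletion of Nfasc alone does. Arc was at 33.3, 38.2 and 41.1 CPM in the control libraries (37.5 ± 3.97, SD, n = 3) and at 44.3, 43.0 and 44.6 CPM in NFKO (44.0 ± 0.836, SD, n = 3). Every NFKO library thus lay above every control library, and the NFKO libraries were close to each other. The log2 fold change of 0.23 (standard error 0.18, 95% interval -0.18 to 0.64) had an adjusted p = 0.913 in the edgeR test. In the same libraries Schwann cell markers summed to 264 to 290 CPM in NFKO and 17.9 to 130 CPM in control. General neuronal markers summed to 3529 to 3686 and 3702 to 4053 CPM. The blood list rested on Alas2 alone, with Hba-a1 at 0 CPM in every library. Alas2 was at 30.7 to 34.0 CPM in NFKO and 12.2 to 16.5 CPM in control. The part of these marker differences in the level of Arc was not tested. Arc was the only member whose groups did not overlap, in a comparison in which 7.42% of all genes were higher in every NFKO library and 6.51% lower. Npas4, at 2.13, 3.24 and 2.55 CPM in control, was at 2.16, 2.50 and 2.32 CPM in NFKO and so within the control range.

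The AP-1 genes overlapped between NFKO and control. Fos was at 12.7, 12.0 and 18.8 CPM in control and at 21.5, 17.1 and 11.6 CPM in NFKO, so NFKO held both its highest and its lowest level of all libraries. Fosb was at 2.24, 1.75 and 2.88 CPM in control and at 2.41, 2.43 and 2.71 CPM in NFKO. Junb lay between 11.5 and 13.1 CPM in control and between 11.3 and 13.7 CPM in NFKO. The log2 fold changes were 0.21 for Fos, 0.14 for Fosb and 0.05 for Junb, each smaller than its standard error of 0.24, 0.19 and 0.15.

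Dusp1, Btg2 and Nr4a1 overlapped between NFKO and control as well. Dusp1 was held at 22.2, 21.2 and 21.1 CPM in control but ranged over 29.6, 25.8 and 16.9 CPM in NFKO. Btg2 was at 8.24, 11.2 and 10.7 CPM in control and at 13.2, 13.1 and 9.05 CPM in NFKO. Nr4a1 was at 9.20, 9.72 and 12.4 CPM in control and at 13.9, 11.3 and 10.5 CPM in NFKO. For each of these 3 genes NFKO replicate 1 was the highest and NFKO replicate 3 the lowest of its group. Egr1 (25.2 to 38.1 CPM in control, 29.3 to 36.1 in NFKO) and Ier2 (6.19 to 6.76 and 6.24 to 7.42 CPM) overlapped as well.

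None of the 10 members passed the test in NFKO against control, where the call required both an adjusted p under 0.05 in edgeR and a log2 fold change of 0.6 or more in size. The same held with DESeq2, which called 0.945% of all genes, and 0 of 10 had an unadjusted p under 0.05 in edgeR. Over all genes tested, 0.365% were differentially expressed and 7.69% had an unadjusted p under 0.05. Of the 10 fold changes 9 were above 0, with a median of 0.15 against -0.005 for all genes. With Xist, the RNA of the inactive X chromosome, as a covariate for the sex of the mice, 5 of them turned below 0. The 95% intervals of the 10 members spanned log2 values from -0.64 to 0.75, and none reached a doubling.

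**Figure D2:**
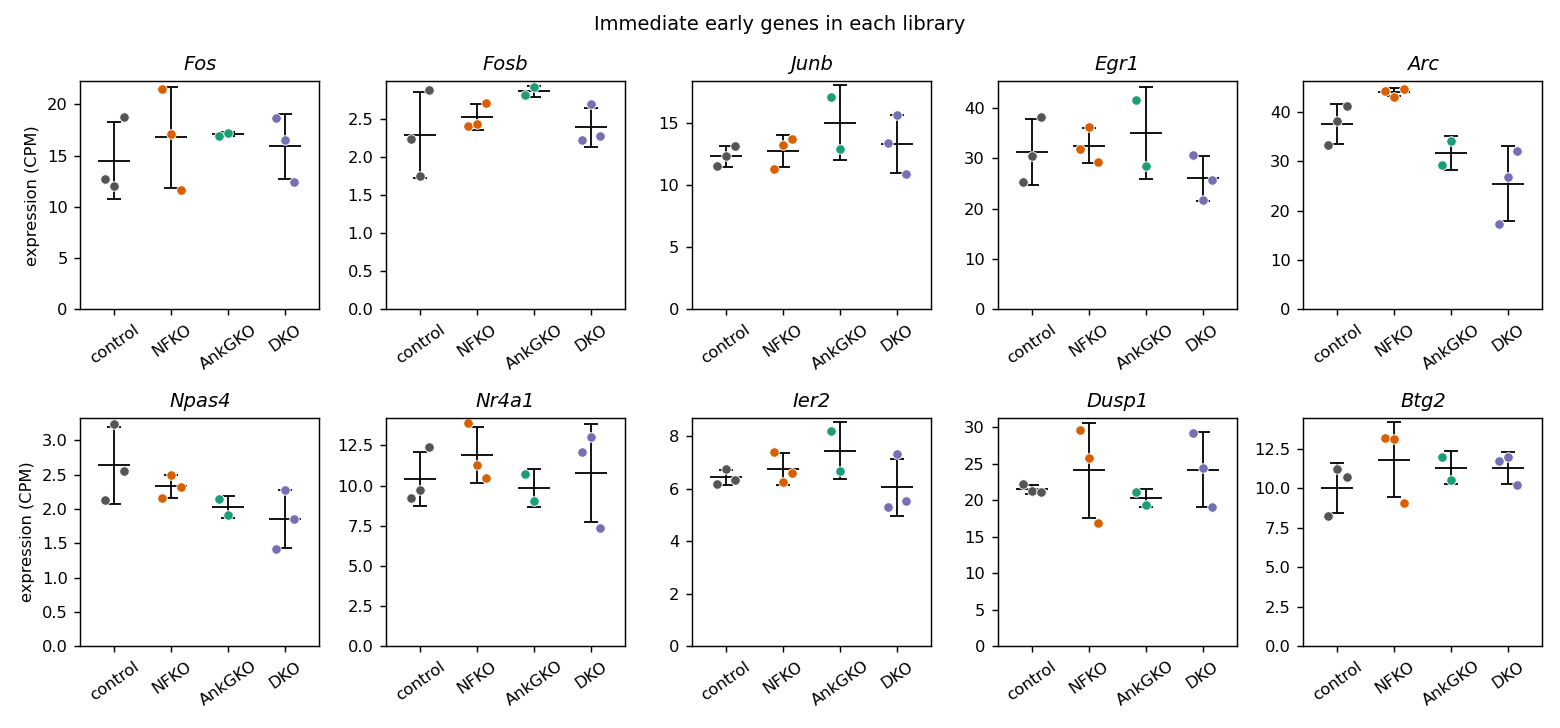
Expression of the 10 immediate early genes (y axis, TMM-scaled CPM from 0) in each of the 11 libraries (coloured points) by genotype (x axis), with the mean and SD of each genotype in black (n = 3, and n = 2 for AnkGKO). The 3 DKO libraries of Arc, at 17.2 to 32.1 CPM, sit below all control and NFKO libraries, while the groups of Fos, Dusp1 and Nr4a1 overlap.

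AnkGKO was compared to control to ask what deletion of Ank3 alone does, with only 2 AnkGKO libraries. Fosb was at 2.81 and 2.91 CPM in AnkGKO, and control replicate 3, at 2.88 CPM, lay between them. Its log2 fold change of 0.32 (standard error 0.21) was the highest of the members. Junb reached 17.1 CPM in AnkGKO replicate 1, its highest level of all libraries, and was at 12.9 CPM in replicate 2. Ier2 (8.21 and 6.69 CPM) and Egr1 (41.5 and 28.5 CPM) likewise had their highest level of all 11 libraries in AnkGKO replicate 1 and were within the control range in replicate 2.

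Arc and Npas4 had the lowest log2 fold changes of the members in AnkGKO, and neither passed the test (adjusted p = 0.998 each in edgeR). Arc was at 29.2 and 34.0 CPM in AnkGKO, with log2 fold change -0.25 (95% interval -0.71 to 0.21). Npas4 was at 2.15 and 1.91 CPM, with log2 fold change -0.38 (95% interval -0.90 to 0.14). Both groups still touched the control range. Fos (16.9 and 17.2 CPM), Nr4a1 (10.7 and 9.02 CPM), Dusp1 (21.1 and 19.4 CPM) and Btg2 (12.0 and 10.5 CPM) had log2 fold changes between -0.09 and 0.24.

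In AnkGKO against control, 0 of 10 members passed the test in edgeR or DESeq2 and 0 had an unadjusted p under 0.05 in edgeR, against 0.165% (edgeR), 0.582% (DESeq2) and 5.39% of all genes. No member's groups were separate, where 11.7% of genes were higher and 12.3% lower in both AnkGKO libraries than in every control library. The median fold change was 0.16 on the log2 scale, with 6 values above 0, and the lowest adjusted p was 0.97 in edgeR. The intervals reached from -0.90 to 0.84.

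DKO was compared to control to ask what loss of both proteins does, and here Arc and Npas4 had the lowest levels. Arc was at 17.2, 26.8 and 32.1 CPM in DKO (25.4 ± 7.57, SD, n = 3), so all 3 DKO libraries lay below the lowest control library at 33.3 CPM. The log2 fold change was -0.56 (standard error 0.18, 95% interval -0.97 to -0.15), with an unadjusted p = 0.0123 and an adjusted p = 0.588 in edgeR. Of all genes, 6.8% were lower in every DKO library than in every control library and 7.65% higher. In the deposited normalized counts the same order held, with Arc at 1197 ± 355 in DKO (SD, n = 3) and 1769 ± 185 in control (SD, n = 3). By mean CPM the genotypes followed the order NFKO, control, AnkGKO and DKO for Arc, and AnkGKO overlapped both of its neighbours. Npas4 was at 1.42, 2.27 and 1.86 CPM in DKO, and its highest DKO library exceeded the lowest control library. Its log2 fold change was -0.52 (standard error 0.21, 95% interval -0.98 to -0.05), with an unadjusted p = 0.0318 and an adjusted p = 0.619 in edgeR.

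The AP-1 genes did not share this order. Fos was at 18.7, 16.5 and 12.4 CPM in DKO (15.9 ± 3.17, SD, n = 3), close to its control mean of 14.5 ± 3.75 CPM (SD, n = 3). Fosb was at 2.22, 2.69 and 2.27 CPM and Junb at 13.4, 15.6 and 10.9 CPM in DKO, both overlapping control. Their log2 fold changes of 0.13, 0.06 and 0.11 were smaller than their standard errors.

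Egr1 was at 30.6, 21.8 and 25.6 CPM in DKO, with log2 fold change -0.26 (95% interval -0.68 to 0.15). Dusp1 was at 29.2, 24.4 and 19.0 CPM, again with replicate 1 highest and replicate 3 lowest. Nr4a1 was at 12.1, 13.0 and 7.33 CPM and Btg2 at 11.7, 12.0 and 10.2 CPM. For Egr1, Nr4a1, Dusp1 and Btg2 the ranges overlapped control, as did Ier2 at 5.30, 7.31 and 5.53 CPM.

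In DKO against control, 0 of 10 members passed the test in edgeR or DESeq2, where edgeR called 0.0228% and DESeq2 0.284% of all genes. An unadjusted p under 0.05 was reached by 2 of 10, Arc and Npas4, against 7.77% of all genes tested. The median log2 fold change of the members was 0.06. Both negative values kept their sign in all 20 alternative settings, at -0.77 to -0.35 for Arc (adjusted p = 0.0682 with DESeq2 to 0.896) and -0.69 to -0.35 for Npas4. Markers of motor neurons summed to 288 to 304 CPM in DKO and 128 to 215 CPM in control, while the Purkinje cell sum of 169 to 232 CPM in DKO overlapped control. The part of these marker differences in the level of Arc or Npas4 was not tested.

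**Figure D3:**
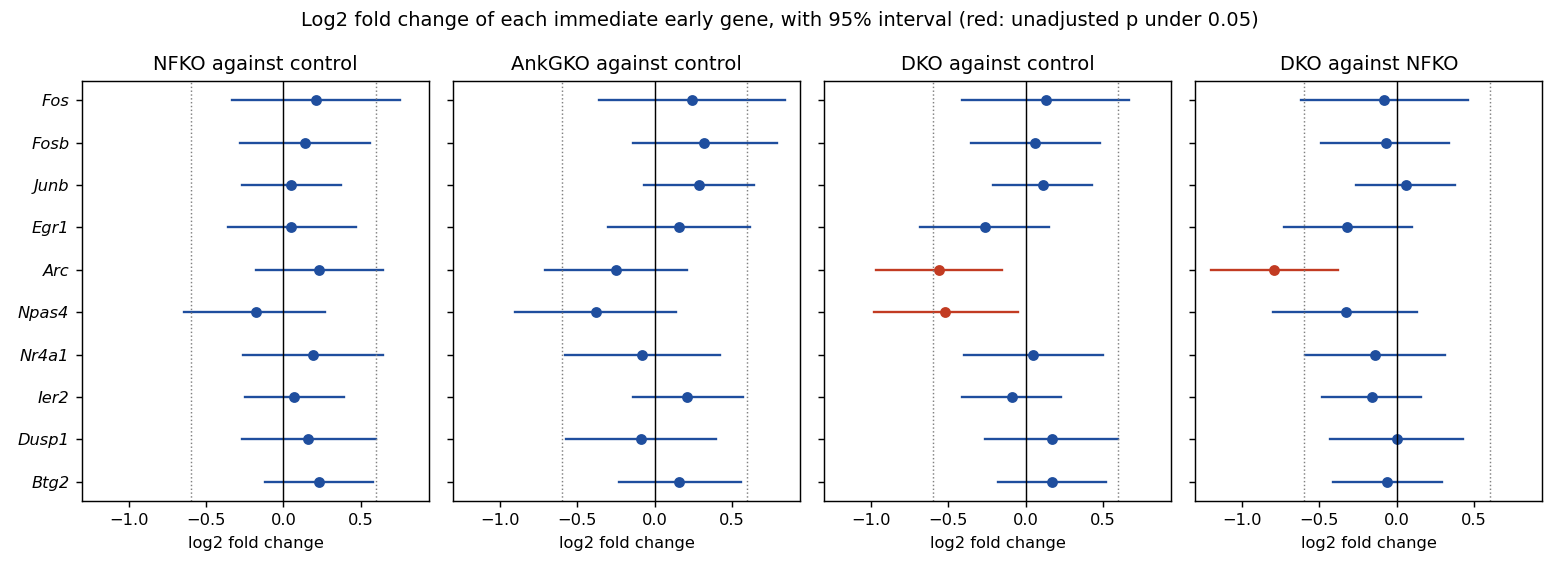
Log2 fold change (x axis) of each of the 10 immediate early genes (y axis) with its 95% interval from the edgeR fit, in 4 comparisons, with dotted lines at -0.6 and 0.6. Red marks an unadjusted p under 0.05, reached by Arc and Npas4 in DKO against control and by Arc (-0.79) in DKO against NFKO, and all other intervals include 0.

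DKO was then compared to each single knockout. Arc gave the largest difference of the set, between 17.2 and 32.1 CPM in DKO and 43.0 to 44.6 CPM in NFKO. The groups did not overlap, as for 10% of all genes that were lower in every DKO library and 9.32% that were higher. The log2 fold change was -0.79 (standard error 0.18, 95% interval -1.20 to -0.38), with an unadjusted p = 0.00158 and an adjusted p = 0.0939 in edgeR. Arc therefore missed the threshold, and 0 of 10 members were differentially expressed against 0.615% of all genes. It was the 1 member with an unadjusted p under 0.05, a level reached by 16.2% of all genes. DESeq2 did call Arc in this comparison, at an adjusted p = 0.000189, and it called 2.53% of all genes. Leaving out DKO replicate 3, the DKO library with the highest level of Arc, widened the difference and gave an adjusted p = 0.033 in edgeR. Without DKO replicate 1, the lowest, the log2 fold change was -0.58 at an adjusted p = 0.0496 in edgeR, and the fold change fell short of the threshold.

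Of 15 marker lists, 5 did not overlap between DKO and NFKO. Endothelial markers summed to 155 to 186 CPM in DKO and 189 to 271 CPM in NFKO, and smooth muscle and pericyte markers to 66.3 to 74.3 and 105 to 221 CPM. Schwann cell markers summed to 1.06 to 122 CPM in DKO and 264 to 290 CPM in NFKO. Motor neuron markers summed to 288 to 304 and 152 to 279 CPM. Alas2, the only gene of the blood list with reads, was at 12.7 to 25.3 and 30.7 to 34.0 CPM. Their part in the result was not tested. General neuronal markers, Snap25, Syt1 and Rbfox3, summed to 3270 to 3882 CPM in DKO and 3529 to 3686 CPM in NFKO and so overlapped. In DKO replicates 1, 2 and 3 that sum was 3882, 3270 and 3791 CPM, most of it Snap25 (3477, 2951 and 3421 CPM). Its part in the levels of Arc and Npas4 was not tested.

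The other members lay between -0.33 (Npas4) and 0.06 (Junb) on the log2 scale in DKO against NFKO, with Egr1 at -0.32 and Dusp1 at 0.00. In DKO against AnkGKO, Arc was at log2 fold change -0.31 (95% interval -0.77 to 0.14) and its groups overlapped. Fosb was lower in all 3 DKO libraries (2.22 to 2.69 CPM) than in both AnkGKO libraries (2.81 and 2.91 CPM), with log2 fold change -0.26 and adjusted p = 0.771 in edgeR. In that comparison 11.3% of all genes were lower and 12.4% higher without overlap. None of the 10 members passed the test there in edgeR or DESeq2, or had an unadjusted p under 0.05 in edgeR, against 0.171% (edgeR), 0.6% (DESeq2) and 8.48% of all genes. Endothelial markers (155 to 186 against 205 to 224 CPM) and smooth muscle and pericyte markers (66.3 to 74.3 against 96.7 to 108 CPM) were likewise lower in DKO than in AnkGKO without overlap, and their part in the level of Fosb was not tested. These comparisons share their DKO libraries with the one against control, so their values are given side by side and not as separate support.

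Whether the effect of both deletions differed from the sum of the single effects was asked by an interaction term. Arc had an interaction of -0.54 on the log2 scale (standard error 0.27, 95% interval -1.15 to 0.07, adjusted p = 0.549 in edgeR) and Egr1 one of -0.48. The term was negative for 8 of 10 members, with a median of -0.27. No member passed the test in edgeR or DESeq2, and 0 of 10 had an unadjusted p under 0.05 in edgeR, against 0.53% (edgeR), 1.89% (DESeq2) and 10.3% of all genes. With Xist as a covariate, 6 of the 10 terms changed sign and that of Arc was among those that did not. Tested for any difference among the 4 genotypes at once, 0 of 10 members passed in edgeR and 1, Arc (unadjusted p = 0.00961, adjusted p = 0.268), had an unadjusted p under 0.05, against 0.723% and 11.3% of all genes. In DESeq2 the adjusted p of Arc was 0.0011, in a test that 6.76% of all genes passed.

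Whether the members rose and fell together from mouse to mouse was asked over all 45 pairs. Pearson's r of log2(CPM + 0.5) over the 11 libraries had a median of 0.24 and was positive for 34 pairs. Without DKO replicate 3, the library with the lowest mean of the members, the median was 0.13, with 29 pairs positive. Fos, Nr4a1, Dusp1 and Btg2 formed 5 of the 6 pairs with the highest values, and Arc with Npas4 the other. Fos had r = 0.71 with Nr4a1 (Spearman's rho 0.60), r = 0.71 with Btg2 (rho 0.55) and r = 0.70 with Dusp1 (rho 0.54). Dusp1 had r = 0.67 with both Nr4a1 and Btg2. Each of these 5 had an adjusted p = 0.189 for r in a two-sided permutation test. Over all 11 libraries no pair passed the threshold by r or by rho, and without control replicate 1 Dusp1 with Btg2 passed by rho (rho 0.90, adjusted permutation p = 0.0378) but not by r (0.87, adjusted p = 0.0598).

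Arc and Npas4 had r = 0.70 with each other (rho 0.60, permutation p = 0.0252, adjusted 0.189). Without DKO replicate 1 and NFKO replicate 3, the libraries farthest from the median level of Arc, r was 0.40. Arc had r = -0.16 with Fos and -0.34 with Dusp1 (0.44 without the same 2 libraries), and Npas4 had r = -0.30 with Fos. Without NFKO replicate 3 and control replicate 2, Fos had r = 0.10 with Arc and 0.09 with Npas4. Npas4 with Nr4a1 went from r = 0.08 to 0.69 without control replicate 2 and DKO replicate 1. After centring on the genotype means, Fos had r = 0.80 with Dusp1 and 0.79 with Nr4a1, Arc had 0.54 with Npas4, and Arc with Dusp1 gave -0.58. Fos with Nr4a1 stood at r = 0.83 when NFKO replicate 3 and control replicate 2 were left out, which lay farthest below the median level of Fos, while NFKO replicate 1, the highest in both genes, stayed in.

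**Figure D4:**
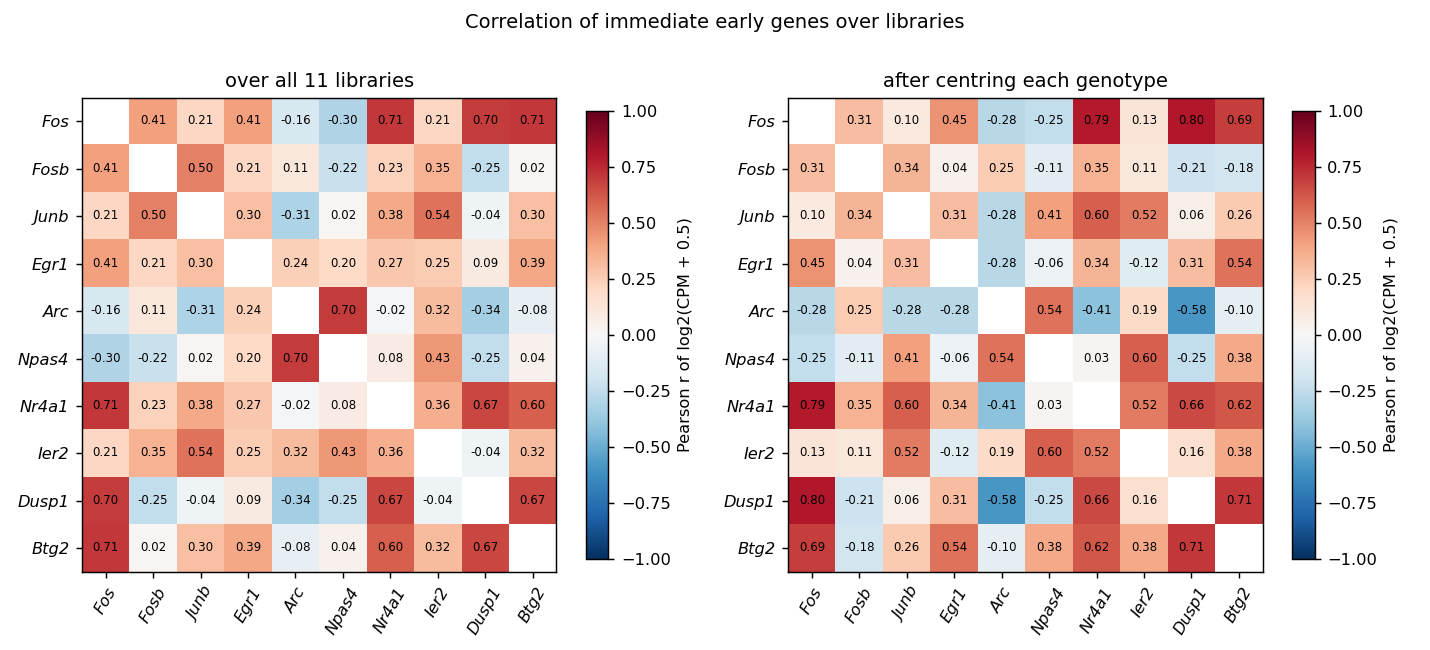
Pearson's r of log2(CPM + 0.5) for each pair of the 10 immediate early genes (both axes), over all 11 libraries (left) and after subtraction of each genotype's mean (right), with the colour scale from -1 to 1. The block of Fos, Nr4a1, Dusp1 and Btg2 holds values of 0.60 to 0.71 on the left, and Arc and Npas4 pair with each other at 0.70.

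The mean of the 10 standardized members summarized each library. It was highest in NFKO replicate 1 (0.67) and AnkGKO replicate 1 (0.64) and lowest in DKO replicate 3 (-0.96) and control replicate 1 (-0.70), and no genotype had all of its libraries on one side of 0. Among 13810 other genes with a median of at least 1 CPM, the levels most like this mean over the 11 libraries were those of Polk and Mobkl1b (r = 0.92 each), Procr and Yap1 (0.87 each), and Ippk, AI597479, Rap1b, Zfp111, Calr3 and Cav1 (0.85 each). These are the top of a long ranking and are given as a description, without a test. Of the related rapid response genes, Sik1 ranked highest (r = 0.74, rank 92), followed by Klf6 at rank 102 and Egr2 at rank 133.

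The wider pathway was followed in 89 related genes, all of which were tested: 9 relatives in the AP-1, EGR and NR4A families, 37 other rapid response genes, 16 delayed activity-regulated neuronal genes and 27 upstream regulators and partners. Of the 89, 1 rose and none fell against control in AnkGKO, and none passed the test in NFKO or DKO by edgeR. The 1 call compares with 0.165% of all genes. An unadjusted p under 0.05 in edgeR was reached by 5 in NFKO (5.62%, against 7.69% of all genes), 5 in AnkGKO (5.62%, against 5.39%) and 12 in DKO (13.5%, against 7.77%). The median log2 fold change of the 89 was 0.063, 0.028 and 0.04 in the same order. In edgeR none of the 89 passed in DKO against either single knockout or for the interaction. An unadjusted p under 0.05 was reached by 18 in DKO against NFKO (20.2%, against 16.2% of all genes), by 9 in DKO against AnkGKO (10.1%, against 8.48%) and by 6 for the interaction (6.74%, against 10.3%).

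DESeq2 called more of the related genes. It called Atf3 in AnkGKO and in DKO against control, and Atf3 (adjusted p = 0.043) and Ptgs2 (adjusted p = 0.018) for the interaction. It called 4 genes in DKO against NFKO, and none in NFKO against control or DKO against AnkGKO. Of all genes, DESeq2 called 0.582% in AnkGKO, 0.284% in DKO and 0.945% in NFKO against control. The share was 1.89% for the interaction, 2.53% in DKO against NFKO and 0.6% in DKO against AnkGKO. The 4 genes called in DKO against NFKO were all higher in DKO and are named after their values were seen: Sgk1 and Per1, which glucocorticoids also induce, Arl4d and Csrnp1. Sgk1, the gene of a serum- and glucocorticoid-regulated kinase, lay at 125 to 489 CPM in DKO and 62.4 to 99.6 CPM in NFKO (log2 fold change 1.94, adjusted p = 0.00529 in DESeq2 and 0.148 in edgeR). Per1, a clock gene, lay at 54.5 to 89.9 and 38.8 to 45.9 CPM (adjusted p = 0.0191 in DESeq2 and 0.125 in edgeR). For all 4 genes the highest of the 11 libraries was DKO replicate 1, the library in which Arc and Npas4 were lowest. Csrnp1 overlapped between the groups, at 8.83 to 19.5 CPM in DKO and 6.57 to 9.40 CPM in NFKO.

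The gene that rose was Atf3, a bZIP factor related to the AP-1 proteins that is induced by cell stress and by axon injury. It was at 1.53, 1.23 and 1.64 CPM in control and at 3.49 and 4.78 CPM in AnkGKO. NFKO libraries were at 1.80, 2.10 and 1.65 CPM and DKO libraries at 2.71, 2.78 and 2.26 CPM. Both AnkGKO libraries thus stood above all 9 others, and all 3 DKO libraries stood above all control and NFKO libraries. Of all genes, 11.7% were higher in both AnkGKO libraries than in every control library. In every DKO library, 7.65% were higher than in every control library and 9.32% higher than in every NFKO library. The log2 fold change was 1.49 in AnkGKO (standard error 0.21, adjusted p = 0.0116 in edgeR), 0.81 in DKO (adjusted p = 0.467 in edgeR, 0.0329 in DESeq2) and 0.34 in NFKO (adjusted p = 0.799 in edgeR). The difference between DKO and AnkGKO was -0.68 (adjusted p = 0.436 in edgeR). The marker sum of microglia was higher in AnkGKO than in control without overlap (286 to 303 against 214 to 250 CPM). So was Alas2, the only gene of the blood list with reads (20.8 to 37.3 against 12.2 to 16.5 CPM). Sums of general neurons (3333 to 3437 against 3702 to 4053 CPM) and Purkinje cells (184 to 194 against 200 to 932 CPM) were lower without overlap. So were those of granule cells (32.2 to 36.7 against 37.4 to 574 CPM) and skeletal muscle (0.999 to 1.57 against 21.2 to 42.9 CPM). The part of these differences in the level of Atf3 was not tested. The call in AnkGKO was lost without control replicate 1 (adjusted p = 0.056 in edgeR), control replicate 2 (0.0636) or AnkGKO replicate 2 (0.163), while the log2 fold change stayed between 1.25 and 1.70.

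**Figure D5:**
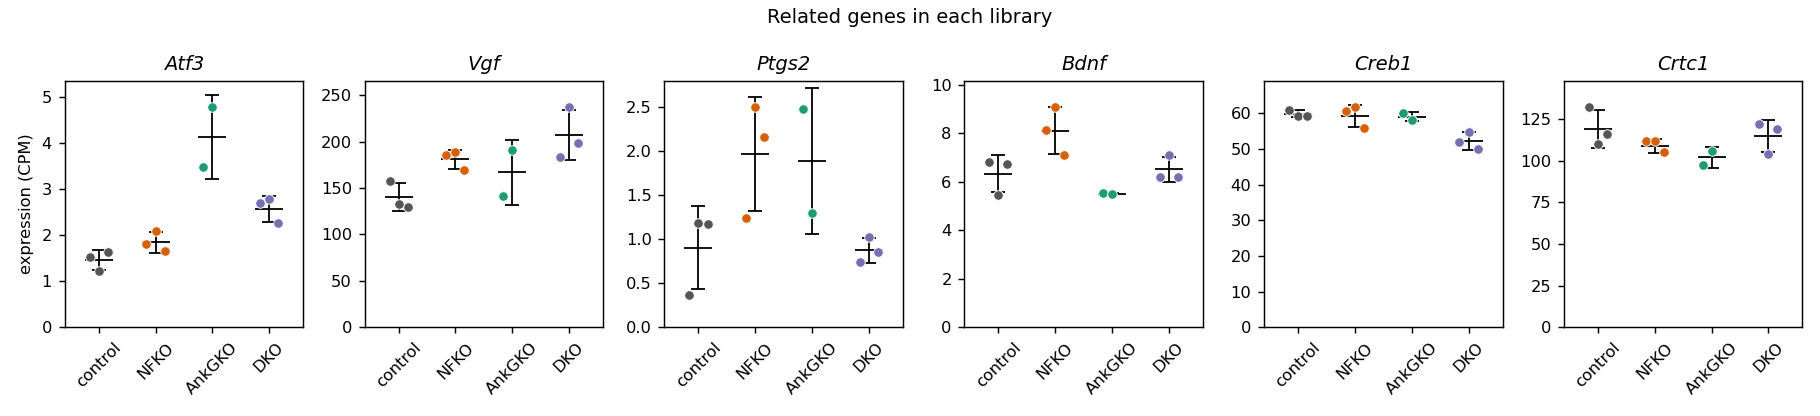
Expression (y axis, TMM-scaled CPM from 0) of 6 related genes in each of the 11 libraries (coloured points) by genotype (x axis), with the mean and SD in black (n = 3, and n = 2 for AnkGKO). Atf3 reaches 3.49 and 4.78 CPM in AnkGKO and at most 2.78 CPM elsewhere, and Vgf lies at 184 to 237 CPM in DKO against 130 to 158 CPM in control.

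Among slower activity-regulated genes, Vgf encodes a neuropeptide precursor. It lay at 130 to 158 CPM in control, 170 to 189 in NFKO, 142 to 191 in AnkGKO and 184 to 237 in DKO. Its log2 fold change in DKO was 0.56 (unadjusted p = 0.000881, adjusted p = 0.427 in edgeR and 0.00262 in DESeq2, but under the fold threshold of 0.6), in the direction opposite to that of Arc. Bdnf, the neurotrophin gene, was at 8.11 ± 0.978 CPM in NFKO and 6.33 ± 0.762 CPM in control (SD, n = 3 each), with log2 fold change 0.36 and adjusted p = 0.503 in edgeR. Ptgs2, which encodes cyclooxygenase 2, lay at 0.364 to 1.19 CPM in control and 1.24 to 2.50 CPM in NFKO, with log2 fold change 1.11 and adjusted p = 0.511 in edgeR. Creb1, the gene of CREB itself, lay at 49.9 to 54.9 CPM in DKO and 59.2 to 61.0 CPM in control, a log2 fold change of -0.20 (adjusted p = 0.576 in edgeR). Crtc1, a CREB coactivator gene, had -0.23 in AnkGKO (adjusted p = 0.829 in edgeR).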

How the data were processed

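Bulk polyadenylated RNA of 11 libraries was analysed by genotype as labelled. With the reads, the authors used Trimmomatic 0.39 for trimming and STAR 2.7.11a for alignment to GRCm39, and deposited a table of raw counts per gene. The counter's strand setting is not given in the sources used here, although the kit was directional, and the sources differ on read layout (single-end or paired-end). The second table deposited by the authors holds normalized signal, the counts divided by a size factor per library. It was used for values and for 1 correlation setting, and the counts for all tests.

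The 5 summary lines were left out: reads without a gene were 9.23 to 10.4% and multiply aligned reads 32.5 to 34.3% of all listed. Genes with 10 or more counts in total were fitted in 1 model over the 4 genotypes with edgeR 4.0.16 (TMM, robust quasi-likelihood, Benjamini-Hochberg adjustment) in R 4.3.3. On simulated data for NFKO against control, edgeR found 80 of 100 genes changed by log2 1 and 95 of 100 changed by log2 2, with 9 false calls, and DESeq2 1.42.0 found 86 and 97 with 33. Correlations used log2(CPM + 0.5) and two-sided permutation tests with 100000 resamples. Junb overlaps Prdx2 and Dusp1 overlaps Ergic1 on the opposite strand in GENCODE M39, and 12.8% of the 50-base words of Btg2, 7.64% of Junb, 4.69% of Nr4a1 and 0 of the other 7 members occur in another gene. Intervals of fold changes are at 95%, and floors cover counting error only.

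The members and all gene lists were chosen with earlier results of these data known. Named are the members, Nfasc, Ank3, each related gene called, the 3 related genes of smallest p against control in each single comparison, and the 10 genes most like the members' mean. Tried as alternatives were DESeq2 (local dispersion fit), the size factors of DESeq2 in edgeR, no filter, edgeR's expression filter, only the libraries compared, replicate blocks, Xist or granule cell markers as a covariate, other fold thresholds and pseudocounts, and each library left out. Leaving out control and NFKO replicate 1 together was added after seeing the data. Pairing by replicate number was checked: deviations from the group means correlated at 0.597, 0.5 and 0.229 for same-numbered control and NFKO libraries. For NFKO and DKO the values were 0.082, 0.375 and 0.217, and for control and DKO -0.1, 0.292 and -0.036. For AnkGKO they were -0.378 and -0.485 with control, -0.362 and -0.353 with NFKO, and 0.145 and -0.106 with DKO. The reported fits held genotype only. Replicate blocks, an alternative, changed no member's call in NFKO against control. Imaging, qRT-PCR and behavior were not analysed here.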

Additional observations from a re-analysis of the deposited data

How the results depend on the processing

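No member was called in any comparison of the report, and this count changed in 4 cases. With DESeq2, with replicate blocks and without DKO replicate 3, 1 member (Arc) was called in DKO against NFKO, and with DESeq2 1 (Arc) was called for any difference among the genotypes. Leaving out 1 library in turn gave counts of 0 to 1 for DKO against NFKO and 0 elsewhere. The adjusted p of Arc in DKO against NFKO ranged from 0.000189 with DESeq2 to 0.296 with the Xist covariate, and with replicate blocks it was 0.0347 at a log2 fold change of -0.83. The block covered all genotypes, although same-numbered NFKO and DKO libraries correlated at only 0.082, 0.375 and 0.217 in the check of pairing. Those of AnkGKO correlated negatively with control and NFKO. The block changed no other member's call. The call of Atf3 in AnkGKO was also lost with replicate blocks (adjusted p = 0.0728 in edgeR) and with only the libraries compared (0.0761). It was lost too with the Xist covariate (0.257) and without both libraries of highest granule cell marker sums (0.0964). The log2 fold changes were 1.45, 1.49, 1.32 and 1.53 in the same order. With 2 to 3 libraries per genotype, the 95% intervals of the members span up to -1.20, so changes below the threshold of 0.6 could often not be told from 0, and Npas4 and Fosb are further limited by low counts. For correlations, 0 pairs passed by Pearson's r in every setting, and by Spearman's rho 1 pair, Dusp1 with Btg2, passed without control replicate 1 and 0 in the other settings.

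Of 1190 values over 60 pairs of member and comparison, 84 changed sign, in 35 pairs whose reported log2 fold changes did not exceed 0.48 in size, and none of these was called. The cause was not tested. With the Xist covariate the log2 fold changes in NFKO against control were -0.21 for Fos, -0.08 for Fosb, -0.01 for Junb, -0.25 for Egr1 and -0.07 for Nr4a1. In AnkGKO against control they were -0.20 for Fos and -0.15 for Egr1. In DKO against NFKO they were 0.48 for Fos, 0.24 for Fosb, 0.07 for Egr1, 0.20 for Nr4a1 and 0.08 for Btg2. In DKO against AnkGKO they were 0.47 for Fos and 0.07 for Fosb. For the interaction they were 0.68 for Fos, 0.14 for Fosb, 0.22 for Egr1, -0.34 for Npas4, 0.56 for Nr4a1 and 0.03 for Btg2. With granule cell markers as a covariate, Dusp1 was at 0.09 in AnkGKO against control, and Fos at 0.01 and Junb at -0.01 in DKO against NFKO. Without both libraries of highest granule cell marker sums, NFKO against control gave -0.10 for Fos, -0.07 for Egr1, -0.02 for Nr4a1 and -0.03 for Ier2, and DKO against control -0.03 for Nr4a1. DKO against NFKO then gave 0.14 for Fos, -0.02 for Junb and 0.03 for Btg2, and the interaction 0.15 for Nr4a1. With replicate blocks the interaction of Nr4a1 was 0.02. Dusp1 in DKO against NFKO was at -0.002 with no filter and -0.0001 with edgeR's expression filter.

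With 1 library left out at a time, the log2 fold changes that changed sign ranged in NFKO against control from -0.01 to 0.44 for Fos, -0.02 to 0.34 for Fosb, -0.01 to 0.13 for Junb, -0.08 to 0.22 for Egr1, -0.0006 to 0.13 for Ier2 and -0.01 to 0.37 for Dusp1. In AnkGKO against control they ranged from -0.13 to 0.41 for Egr1 and -0.21 to 0.06 for Nr4a1. In DKO against control they ranged from -0.005 to 0.36 for Fos, -0.10 to 0.26 for Fosb, -0.02 to 0.24 for Junb and -0.11 to 0.27 for Nr4a1. In DKO against NFKO they ranged from -0.29 to 0.14 for Fos, -0.07 to 0.19 for Junb, -0.29 to 0.08 for Nr4a1, -0.20 to 0.18 for Dusp1 and -0.23 to 0.03 for Btg2. In DKO against AnkGKO they ranged from -0.24 to 0.04 for Fos, -0.38 to 0.04 for Junb, -0.30 to 0.02 for Npas4, -0.02 to 0.35 for Nr4a1 and -0.09 to 0.10 for Btg2. For the interaction they ranged from -0.13 to 0.20 for Npas4, -0.21 to 0.16 for Nr4a1 and -0.11 to 0.26 for Dusp1.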
